A study of Mus musculus with 12 samples.

Results

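The 37 mouse genes described here encode proteins that build the acrosome or are stored in it. They were taken by gene symbol from a list of acrosomal enzymes, matrix and membrane proteins, acrosome biogenesis factors and perinuclear theca proteins. All 37 were found among the 55291 genes of the count table, and all 37 passed the filter on low counts that left 21291 genes to test. They lie on 14 chromosomes, with 6 on chromosome 4, 6 on chromosome 6 and 0 on X or Y.

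The acrosome is a secretory granule that round spermatids assemble from Golgi-derived vesicles and spread as a cap over the nucleus. A plate of actin and keratin, the acroplaxome, fixes the granule to the nuclear envelope, and the perinuclear theca encases the nucleus beneath it. The granule holds proteases and hyaluronidases in a protein matrix, which are exposed or released when sperm reach the egg coat. Acrosomal transcripts are known to be made from late meiosis onward and are often stored ahead of translation.

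RNA was measured with Smart-seq2, a method that primes cDNA on poly(A) tails and amplifies it before sequencing, in FACS-sorted male germ cells of 2 genotypes and 2 stages. The knockout (KO) genotype was Pan2flox/-;Stra8-Cre, with a null and a floxed allele of Pan2 and a Cre recombinase driven by the promoter of Stra8, which acts in germ cells near meiotic entry. Wildtype (WT) mice were the controls, and the labels give them neither a floxed allele nor the Cre. PAN2 is the nuclease of the PAN2 and PAN3 complex, which trims poly(A) tails, and the study's title names poly(A) tail homeostasis and translation in spermiogenesis as its subject. The stages were round spermatids (RS), the haploid cells after meiosis, and spermatocytes at the MII stage, just before them. Each group had 3 libraries, namely KO RS, WT RS, KO MII and WT MII. Ages, and whether replicates came from separate animals, are not in the labels, so every p-value speaks only of how far libraries of a group spread, and that spread may be technical. Because cDNA was primed on poly(A) and PAN2 trims tails, priming and transcript amount cannot be told apart between KO and WT. A count is neither a tail length nor a rate of translation.

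Pan2 was the check of the labels. It had 22.6, 4.73 and 3.52 CPM (counts scaled by library size, with the TMM method) in the libraries labelled KO RS replicates 1 to 3, against 9.93, 8.13 and 12.9 CPM in the WT RS libraries. It had 5.57, 7.10 and 5.07 CPM in the KO MII libraries, against 12.9, 17.1 and 13.3 CPM in the WT MII libraries. Thus 5 libraries labelled KO were below every WT library of their stage, while the library labelled KO RS replicate 1 was the highest of all 12 and went against its label. The position of the loxP sites is not stated in the labels, so a gene-wide count is an incomplete check of the deletion. For genes called in RS, the value without that library is given as well.

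Libraries held 13781370 to 38652066 counts, of which the 37 genes took between 1.41% and 1.88%. The labelled tissue is sperm, while the design names MII spermatocytes and round spermatids. The defining transcripts of both, and of elongating spermatids, were present in every group. A list of 9 round spermatid markers summed to between 3769.6 and 4411 CPM in libraries labelled KO RS, 2375 and 3596 CPM in WT RS, 2894 and 3396 CPM in KO MII, and 2219.7 and 3568 CPM in WT MII. The WT sums overlapped between the stages. In such bulk samples, fewer cells of a type and less RNA per cell cannot be told apart.

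In round spermatids, 13 of the 37 acrosome genes were higher in the libraries labelled KO RS than in WT RS, 1 was lower and 23 did not pass the test (edgeR quasi-likelihood test, called at an adjusted p under 0.05). Over all genes tested, 6.06% were called higher and 7.39% lower in this comparison (13.4% in either direction). In 18 of the 37 genes every library labelled KO RS was above every WT RS library and in 4 every one was below, against 17.8% and 18.3% of all genes. The median log2 fold change of the 37 was 0.39, against -0.01 over all genes, and 28 of the 37 values were positive. The genes that rose included hyaluronidases, lysozyme-like proteins, matrix and membrane proteins and the egg-activating phospholipase, whereas no protease was called. The one fall was that of Gopc, a Golgi trafficking factor. With library sizes taken as the total count alone, 1014 genes were called higher and 1953 lower over the whole table, against 1290 and 1573 with TMM scaling, and 12 of the 37 were called.

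The number of calls depended on single libraries. It was 14 with all libraries, 4 with the library labelled KO RS replicate 1 left out, 3 without KO RS replicate 2, 5 without WT RS replicate 1 and 2 without WT RS replicate 3. The median log2 fold change of the 37 was 0.27 without WT RS replicate 3 and 0.36 without the library labelled KO RS replicate 1. With the library labelled KO RS replicate 1 left out, the 4 called were Spam1, Acrv1, Eqtn and, at 0.66 (adjusted p = 0.0427, edgeR), Zpbp. Spam1 and Acrv1 were called in RS whichever single library was left out. With Sertoli and Leydig marker scores as covariates, 0 of the 37 were called, Spam1 and Acrv1 included, and 53 of all genes tested were. Sertoli sums did not overlap between KO and WT, so that fit cannot tell the genotype from the scores.

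**Figure D1:**
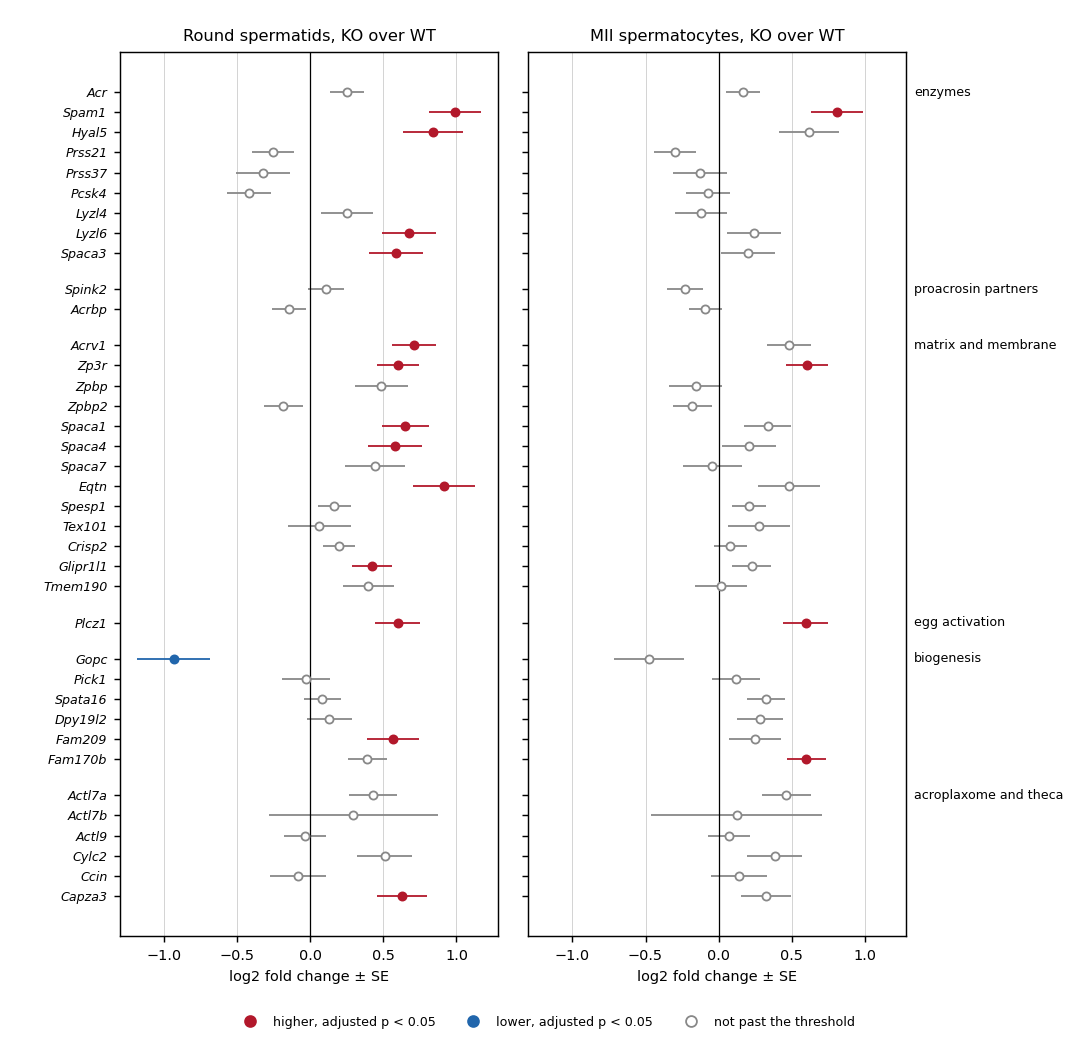
Log2 fold change of KO over WT with its standard error (horizontal axis) for each of the 37 genes (rows, by role), in RS on the left and in MII on the right. Filled points passed the test, and most points lie to the right of 0 in both stages, with 13 filled on that side in RS and 4 in MII.

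Of the 9 enzymes and enzyme-like proteins, 4 were higher in RS and 0 lower, against 6.06% and 7.39% of all genes. All 4 were hyaluronidases or lysozyme-like proteins. Spam1, a membrane-anchored hyaluronidase that loosens the cumulus matrix around the egg, had 379, 380.3 and 332 CPM in libraries labelled KO RS, against 195, 207 and 147 CPM in WT RS libraries. In MII it had 256, 327 and 220.0 CPM in KO libraries, against 174, 113 and 170.4 CPM in WT libraries. Every KO library was above every WT library of its stage, and Spam1 had the largest rise of the 37 in both stages. Its log2 fold change was 0.99 (SE 0.179, adjusted p = 0.00194, edgeR quasi-likelihood test) in RS and 0.81 (SE 0.179, adjusted p = 0.0188) in MII. The RS value was 0.96 (adjusted p = 0.0100) with the library labelled KO RS replicate 1 left out, and the MII call was lost without KO MII replicate 1 or replicate 2.

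Hyal5, the neighbouring sperm hyaluronidase gene of rodents, had 440.4, 443 and 363 CPM in libraries labelled KO RS, against 242, 295 and 159 CPM in WT RS libraries. The groups did not overlap, and the log2 fold change was 0.84 (SE 0.206, adjusted p = 0.0121, edgeR quasi-likelihood test). In MII, Hyal5 averaged 331 ± 58.2 CPM in KO and 216 ± 53.9 CPM in WT (SD, n = 3 each), a log2 fold change of 0.62 that did not pass (adjusted p = 0.0991, edgeR). Without the library labelled KO RS replicate 1, Hyal5 was at 0.80 in RS with an adjusted p of 0.0510.

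Spam1 (chr6:24791188-24801048) and Hyal5 (chr6:24857997-24891958) both lie on the plus strand of mm10, 56948 bases apart. No stretch of 100 bases was found in the exons of both. Their sequences upstream of the start are shown because both genes rose in RS and because they share a run of letters. Those of Lyzl6 and Fam170b, which were also called higher in KO, in RS and in MII in that order, and of Gopc, which was called lower, are shown for comparison. Each is the 250 bases before the RefSeq start in GRCm38.p6, from chr6:24790938-24791187 for Spam1, chr6:24857747-24857996 for Hyal5, chr14:32833712-32833961 for Fam170b (plus strand), chr11:103638891-103639140 for Lyzl6 and chr10:52382125-52382374 for Gopc (minus strand). Capitals mark TGATGTCA or TGACG, read on either strand. All printed windows of genes that rose hold TGATGTCA, so they do not stand for the list. The windows of Acrv1, Zp3r, Spaca1, Spaca3, Spaca4 and Glipr1l1, also called higher in RS, lack it. Those of Spaca7, Actl7a, Actl7b and Actl9, not called in a KO comparison, hold it.
Spam1: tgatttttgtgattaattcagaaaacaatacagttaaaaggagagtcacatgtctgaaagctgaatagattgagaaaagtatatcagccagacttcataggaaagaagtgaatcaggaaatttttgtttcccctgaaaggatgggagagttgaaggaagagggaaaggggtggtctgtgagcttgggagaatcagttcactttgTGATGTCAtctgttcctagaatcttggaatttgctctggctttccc
Hyal5: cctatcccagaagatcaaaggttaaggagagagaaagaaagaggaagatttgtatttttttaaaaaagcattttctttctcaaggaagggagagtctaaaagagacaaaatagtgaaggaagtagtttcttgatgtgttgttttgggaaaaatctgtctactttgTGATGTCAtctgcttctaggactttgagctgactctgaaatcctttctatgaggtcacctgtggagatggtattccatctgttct
Lyzl6: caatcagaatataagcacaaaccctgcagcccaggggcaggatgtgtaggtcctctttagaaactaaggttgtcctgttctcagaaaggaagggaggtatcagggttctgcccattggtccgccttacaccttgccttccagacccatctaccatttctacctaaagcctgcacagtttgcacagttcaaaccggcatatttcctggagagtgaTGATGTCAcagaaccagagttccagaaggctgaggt
Fam170b: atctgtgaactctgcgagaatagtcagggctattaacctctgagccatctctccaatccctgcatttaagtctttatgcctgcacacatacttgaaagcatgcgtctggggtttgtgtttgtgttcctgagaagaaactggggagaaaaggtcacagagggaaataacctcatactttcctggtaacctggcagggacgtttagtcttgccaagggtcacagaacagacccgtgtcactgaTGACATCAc
Gopc: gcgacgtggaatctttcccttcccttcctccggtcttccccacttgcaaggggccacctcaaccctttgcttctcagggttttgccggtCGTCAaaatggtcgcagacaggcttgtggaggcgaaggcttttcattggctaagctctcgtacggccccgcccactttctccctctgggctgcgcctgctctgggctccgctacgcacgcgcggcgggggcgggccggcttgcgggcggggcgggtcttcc

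The longest run that the Spam1 and Hyal5 windows shared was 18 bases, ACTTTGTGATGTCATCTG, beginning 52 and 91 bases before the start. It occurred in the windows of only these 2 genes of 27025 with a RefSeq entry. The run was picked because both windows hold it, and one of that length is rarely repeated, so this count is a description. Within the run lies TGATGTCA, which resembles the cAMP response element TGACGTCA that CREM, a regulator of spermatid genes, binds. The letters TGATGTCA were picked after the shared run had been seen, so their counts are a description. They were present, on either strand, in 9 of the 31 acrosome genes with an entry (29%), against 3.41% of all 27025 genes. In the wider acrosome list they were present in 6 of 44 genes with an entry (13.6%). Without Spam1 and Hyal5 they were present in 7 of 29 (24.1%), namely Lyzl6, Spaca7, Fam209, Fam170b, Actl7a, Actl7b and Actl9. In all 9 the match began between 9 and 85 bases before the start. Of the 10 genes with an entry that were higher in KO RS, 4 held the letters (40%), against 5 of the 21 others (23.8%), and no difference between these shares was tested. The exact element TGACGTCA was in the window of Ccin alone, 1 of 31 (3.23%, against 1.77% of all genes). Its TGACG part, which overlaps the exact element, was in 7 (22.6%, against 19.8%), among them Gopc. TATAAA was in 3 (9.68%, against 14.3%), GTTGCC in 5 (16.1%, against 11.8%) and AACTG in 13 (41.9%, against 42.6%), each read on both strands. Median GC content of the windows was 50.8%, against 52% for all genes.

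The lysozyme-like proteins lie in the acrosomal matrix and membrane. Lyzl6 had 538, 536 and 487 CPM in libraries labelled KO RS, against 331, 393 and 254 CPM in WT RS libraries, and rose by a log2 fold change of 0.67 (SE 0.187, adjusted p = 0.0228, edgeR quasi-likelihood test). Spaca3, which is known to bind the egg surface, had 624, 648 and 524 CPM in libraries labelled KO RS, against 375, 497 and 325 CPM in WT RS libraries, a log2 fold change of 0.58 (SE 0.183, adjusted p = 0.0406, edgeR). Neither gene's RS groups overlapped, but both calls were lost without the library labelled KO RS replicate 1, with Lyzl6 at 0.65 (adjusted p = 0.0797) and Spaca3 at 0.55 (adjusted p = 0.127, edgeR). They were also lost without KO RS replicate 2, WT RS replicate 1 or WT RS replicate 3. In MII the KO over WT values were 0.24 for Lyzl6 and 0.20 for Spaca3, with overlapping libraries and adjusted p of 0.515 and 0.587 (edgeR). Lyzl4, a relative of both, was at 0.25 in RS and -0.12 in MII and was not called in either.

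The proteases did not pass the test in either stage. Acr, which encodes acrosin, the main protease of the granule, averaged 681 ± 57.4 CPM in libraries labelled KO RS and 572 ± 8.08 CPM in WT RS libraries (SD, n = 3 each). Those groups did not overlap, but the log2 fold change of 0.25 had an adjusted p of 0.166 (edgeR quasi-likelihood test) and a 95% interval of -0.02 to 0.52. All 95% intervals given here are wider than that test implies. Prss21, the membrane-anchored protease testisin, was at -0.26, and Prss37, a protease-like protein that in mice is needed for sperm to pass into the oviduct, was at -0.33. Pcsk4, a convertase that cleaves precursor proteins in germ cells, had 82.3, 80.8 and 89.9 CPM in libraries labelled KO RS, against 116, 112 and 111 CPM in WT RS libraries. Its log2 fold change of -0.42 missed the threshold (adjusted p = 0.0672, edgeR), although every library labelled KO RS was below every WT RS library. Among the 9 enzymes the RS values therefore ran from -0.42 for Pcsk4 to 0.99 for Spam1.

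Neither partner of acrosin was called. Spink2, an inhibitor that keeps acrosin inactive inside the granule, had the highest level per kilobase of exon of the 37 in WT RS, at 1748 ± 94.9 CPM per kb (SD, n = 3). It had 1436, 1495 and 1517 CPM in libraries labelled KO RS, against 1312, 1361 and 1459 CPM in WT RS libraries. These ranges overlapped, with a log2 fold change of 0.11 (95% interval -0.18 to 0.39, adjusted p = 0.619, edgeR). Acrbp, which binds proacrosin and holds it in the granule, was at -0.14 in RS and -0.09 in MII. A gene on the same strand, Gm44597, covers 29.8% of the exon length of Acrbp, so its count depends on how the authors assigned shared reads.

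Of the 13 matrix and membrane proteins, 6 were higher in RS and 0 lower, against 6.06% and 7.39% of all genes. In RS, 12 of the 13 values were positive. Acrv1, a long-known protein of the acrosomal vesicle and matrix, had 1100.0, 1077 and 946 CPM in libraries labelled KO RS, against 636, 776 and 498 CPM in WT RS libraries. Its log2 fold change was 0.71 (SE 0.150, adjusted p = 0.00513, edgeR quasi-likelihood test), and it was 0.67 (adjusted p = 0.0295) without the library labelled KO RS replicate 1. In MII, Acrv1 averaged 793 ± 64.5 CPM in KO and 567 ± 73.3 CPM in WT (SD, n = 3 each), again without overlap, at 0.48 with an adjusted p of 0.0773 (edgeR). Eqtn, an acrosomal membrane protein that takes part in sperm and egg fusion, had 473, 464 and 381 CPM in libraries labelled KO RS, against 229, 289.6 and 179.7 CPM in WT RS libraries. The groups did not overlap, and the log2 fold change of 0.92 (SE 0.214, adjusted p = 0.00924, edgeR) was the next largest after that of Spam1. The call of Eqtn was lost without WT RS replicate 3, while leaving out the library labelled KO RS replicate 1 gave 0.86 (adjusted p = 0.0418, edgeR). In MII, Eqtn was at 0.48 and not called (adjusted p = 0.217, edgeR).

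Zp3r, a matrix protein that in mice binds the zona pellucida, had 538, 553 and 482 CPM in libraries labelled KO RS, against 349, 404 and 285 CPM in WT RS libraries. In MII it had 376, 439.7 and 351 CPM in KO libraries, against 280.3, 224 and 262 CPM in WT libraries. Neither stage overlapped, and the log2 fold changes were 0.60 (SE 0.144, adjusted p = 0.0111) in RS and 0.61 (SE 0.145, adjusted p = 0.0263) in MII (edgeR quasi-likelihood test). Without the library labelled KO RS replicate 1 the RS value of Zp3r was 0.58 with an adjusted p of 0.0524 (edgeR), and the RS call was also lost without KO RS replicate 2, WT RS replicate 1 or WT RS replicate 3. The MII call of Zp3r was lost under 6 of 22 alternatives. The difference between the 2 effects was -0.01, with a 95% interval of -0.48 to 0.46.

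Spaca1 encodes an inner acrosomal membrane protein that mouse spermatids need to shape the granule. It had 1298, 1308 and 1107 CPM in libraries labelled KO RS, against 794, 942 and 631 CPM in WT RS libraries, and rose by 0.65 on the log2 scale (SE 0.161, adjusted p = 0.0128, edgeR quasi-likelihood test). Spaca4, an anchored surface protein of the granule, had 368, 400.3 and 287 CPM in libraries labelled KO RS, against 209.7, 313 and 182 CPM in WT RS libraries. Its log2 fold change was 0.58 (adjusted p = 0.0424, edgeR), but the groups overlapped, since WT RS replicate 2 lay above the library labelled KO RS replicate 3. Glipr1l1, a protein of the acrosomal region with a role in gamete binding, had 444, 419 and 419 CPM in libraries labelled KO RS, against 324, 338 and 296 CPM in WT RS libraries. The rise of 0.42 in Glipr1l1 was the smallest that was called (adjusted p = 0.0431, edgeR), and its groups did not overlap. None of these 3 calls held without the library labelled KO RS replicate 1, where Spaca1 was at 0.61 (adjusted p = 0.0592), Spaca4 at 0.55 (adjusted p = 0.134) and Glipr1l1 at 0.39 (adjusted p = 0.154, edgeR). Spaca4 and Glipr1l1 were each lost under 12 of 22 alternatives.

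Of the other matrix and membrane genes, Spaca7 was at 0.44 in RS, Tmem190 at 0.40, Crisp2 at 0.20, Spesp1 at 0.16 and Tex101 at 0.06. Spaca7 and Spesp1 encode a secreted acrosomal protein and an equatorial segment protein, Tmem190 an inner acrosomal membrane protein and Tex101 a germ cell surface protein. Crisp2, a cysteine-rich protein of acrosome and tail, had 2279.5, 2286 and 2359 CPM in libraries labelled KO RS, against 2111, 1905 and 2027 CPM in WT RS libraries, the highest counts of the list. Its groups did not overlap, although the change was small and not called (adjusted p = 0.259, edgeR). The zona pellucida-binding pair was not called in RS, with Zpbp at 0.49 and Zpbp2 at -0.18.

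Plcz1 encodes the phospholipase that sperm carry into the egg to start its calcium oscillations. It had 416, 411 and 397 CPM in libraries labelled KO RS, against 277, 310.3 and 222 CPM in WT RS libraries. In MII it had 356, 410.1 and 303 CPM in KO libraries, against 264, 190.1 and 253 CPM in WT libraries. The groups were apart in both stages, and the log2 fold change was 0.60 in each (SE 0.155, adjusted p = 0.0162 in RS and 0.0382 in MII, edgeR quasi-likelihood test). Plcz1 and Capza3, which encodes the sperm-specific subunit of the actin capping protein, lie head to head on opposite strands of chromosome 6. Their starts overlap, and they share 107 exon bases. Capza3 had 426, 414 and 363 CPM in libraries labelled KO RS, against 271, 307 and 199 CPM in WT RS libraries, a log2 fold change of 0.63 (SE 0.171, adjusted p = 0.0208, edgeR). Without the library labelled KO RS replicate 1, neither RS call held, with Plcz1 at 0.58 (adjusted p = 0.0651) and Capza3 at 0.58 (adjusted p = 0.0876, edgeR). The MII call of Plcz1 was lost under 10 of 22 alternatives. The shared bases were 4.26% of the exon length of Plcz1 and 7.01% of that of Capza3. Whether counting used the strand is not stated in the labels, so reads in that stretch cannot be told apart.

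Among the 6 biogenesis and trafficking factors, 1 rose and 1 fell in RS, against 6.06% and 7.39% of all genes. Gopc, a Golgi PDZ protein without which mouse spermatids fail to fuse vesicles into an acrosome, had 5.14, 3.98 and 5.21 CPM in libraries labelled KO RS, against 8.98, 6.20 and 12.3 CPM in WT RS libraries. Its log2 fold change was -0.94 (SE 0.249, adjusted p = 0.0187, edgeR quasi-likelihood test), with no overlap, and every library held at least 111 counts of it. Without the library labelled KO RS replicate 1 the value for Gopc was -0.99 with an adjusted p of 0.0556. In MII, Gopc had 9.27, 13.4 and 12.9 CPM in KO libraries, against 12.9, 20.2 and 16.5 CPM in WT libraries, which overlapped (log2 fold change -0.48, adjusted p = 0.284, edgeR). Fam209, which in mice binds DPY19L2 at the nuclear membrane, had 882, 862 and 718 CPM in libraries labelled KO RS, against 538, 696 and 427 CPM in WT RS libraries. That was a rise of 0.57 (SE 0.177, adjusted p = 0.0399, edgeR) without overlap, and it was lost under 10 of 22 alternatives, among them the fit without the library labelled KO RS replicate 1 (0.51, adjusted p = 0.144). Dpy19l2 itself, which anchors the acrosome to the nucleus, was at 0.13 and was not called.

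Fam170b, an acrosomal protein of mouse spermatids, was the only gene of the 37 called in MII and not in RS. In MII it had 285, 246 and 269 CPM in KO libraries, against 195, 181 and 151 CPM in WT libraries. In RS it had 404, 408 and 387 CPM in libraries labelled KO RS, against 295, 349.6 and 270.4 CPM in WT RS libraries. No KO and WT libraries of a stage overlapped, and the log2 fold changes were 0.60 (SE 0.135, adjusted p = 0.0204) in MII and 0.39 (SE 0.134, adjusted p = 0.0594) in RS (edgeR quasi-likelihood test). The difference between them was -0.21, with a 95% interval of -0.65 to 0.23, so the effect was not shown to differ between stages. Pick1, a partner of GOPC in vesicle traffic, was at -0.03 in RS, and Spata16, a Golgi protein mutated in human globozoospermia, was at 0.08.

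Of the 6 proteins of the acroplaxome and theca, Capza3 alone was called in RS and none in MII, against 13.4% and 3.68% of all genes. Actl7a, an actin-related protein that attaches the acrosome, had 671, 768 and 541 CPM in libraries labelled KO RS, against 474, 619 and 379 CPM in WT RS libraries, and the groups overlapped (log2 fold change 0.43, adjusted p = 0.0928, edgeR quasi-likelihood test). Cylc2 and Ccin, which encode the theca proteins cylicin and calicin, were at 0.51 and -0.09, and Actl9, a relative of Actl7a, was at -0.03. Actl7b stood apart, with 11 to 52 counts in a library, while its neighbour Actl7a, 1969 bases away, was among the well-counted genes. An antisense gene, Gm26657, covers 1308 of the 1439 exon bases of Actl7b and had 0 counts in every library, so the level of Actl7b is uncertain.

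In MII, 4 of the 37 genes were higher in KO than in WT libraries and 0 lower, against 1.83% of all genes higher and 1.86% lower (3.68% in either direction). The groups did not overlap for 10 genes that were higher and 0 that were lower in KO, against 11.7% and 10.4% of all genes. The 4 called were Spam1, Zp3r, Plcz1 and Fam170b, of which Spam1, Zp3r and Plcz1 were also called in RS. The median log2 fold change of the 37 was 0.21, against -0.01 over all genes, and 27 values were positive. The count was 0 without KO MII replicate 1 or without KO MII replicate 2, 1 without WT MII replicate 3 and 2 without WT MII replicate 2, and it was 1 when only the 6 MII libraries were fitted and 0 with the marker covariates. Among the 33 genes not called, the MII values ran from -0.48 for Gopc to 0.62 for Hyal5.

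Whether the KO effect differed between RS and MII was tested directly. No gene of the 37 was called, against 0.0047% of all genes, and 1 of the 37 had an unadjusted p under 0.05 in edgeR, while DESeq2 and limma-voom also called 0. The largest difference was that of Zpbp, at 0.64 with a 95% interval of 0.05 to 1.24 (adjusted p = 0.735, edgeR quasi-likelihood test). Eqtn differed by 0.44 (interval -0.26 to 1.13), Lyzl6 by 0.43 (-0.17 to 1.04) and Gopc by -0.46 (-1.25 to 0.34). Thus 10 genes were called higher in RS and not in MII, but none was shown to respond differently there.

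**Figure D2:**
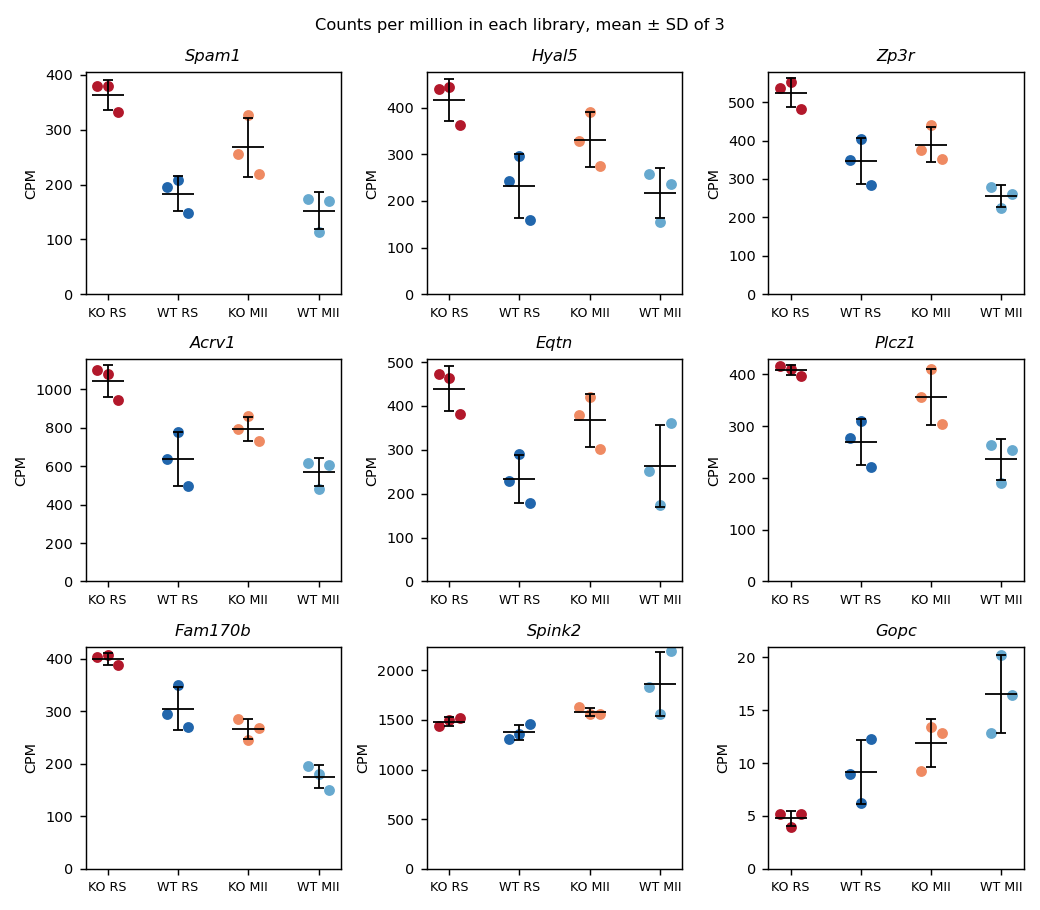
CPM of 9 of the genes in each library (points, coloured by group), with the mean and SD of 3 libraries (black) for KO RS, WT RS, KO MII and WT MII from left to right. The 3 points of KO RS lie above those of WT RS for Spam1, Hyal5, Zp3r, Acrv1, Eqtn, Plcz1 and Fam170b, below them for Gopc, and overlap them for Spink2.

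Within a group, the same library was often the lowest or the highest across the list. WT RS replicate 3 was the lowest WT RS library for 24 of the 37 genes and WT RS replicate 2 the highest for 24. The library labelled KO RS replicate 3 was the lowest of its group for 23. WT MII replicate 2 was the lowest for 21 and KO MII replicate 3 for 22. Summed over the 37, the CPM were 19071, 19693 and 18046 in the libraries labelled KO RS, against 14903, 16161 and 14023 in WT RS. They were 16573, 17706 and 15997 in KO MII, against 15265, 13404 and 16802 in WT MII. The KO sums were above the WT sums in RS without overlap, and overlapped them in MII. The median coefficient of variation was 7.65% in KO RS and 17.3% in WT RS, and 9.04% in KO MII and 19.7% in WT MII, so the 37 genes varied more among WT libraries.

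Some lists of germ cell stage markers moved with these results in RS. Round spermatid markers had 4411, 4376 and 3769.6 CPM in libraries labelled KO RS, against 2899, 3596 and 2375 CPM in WT RS libraries, with 5 of 9 called higher, 0 lower and a median of 0.52. Of the 9, Spaca9, Sun5 and Lyzl1 are also on the wider list of acrosome genes. As with the 37 genes, WT RS replicate 3 was the lowest and WT RS replicate 2 the highest. Elongating spermatid markers, 12 genes that include protamines and transition proteins, ran from 5072 to 6122 CPM in libraries labelled KO RS, against 7229 to 10960.3 CPM in WT RS, with 0 higher and 6 lower. The 6 were Prm1, Prm2, Tnp1, Tnp2, Tssk6 and Car2, while the other 6, which were not called, lay between 0.12 for Odf1 and 0.40 for Smcp. Of 10 markers of the meiotic divisions, 0 were higher and 6 lower in RS, with sums of 1899 to 2179 CPM in libraries labelled KO RS, against 2269 to 3096 CPM in WT RS. In MII, round spermatid markers had 0 called in either direction, and the same 6 elongating spermatid markers were lower, with sums of 4430.3 to 6296 CPM in KO MII, against 5972 to 8218 CPM in WT MII. Of 6 spermatogonial markers tested, 2 were higher in RS and 1 in MII, and 0 were lower. No gene of the round spermatid, elongating spermatid and meiotic division lists was at 0 in any group. The part of stage composition in the acrosome results was not tested.

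Transcripts of somatic cells also differed between KO and WT. A list of 12 Sertoli markers summed to 225, 30.7 and 53.7 CPM in libraries labelled KO RS, against 4.71 to 5.69 CPM in WT RS, and to 71.2 to 302 CPM in KO MII, against 9.78 to 24.7 CPM in WT MII. Amh was at 0 in every group, Gata4 and Rhox5 in WT RS and Fshr in WT MII. A list of 8 Leydig markers summed to 1.69 to 7.75 CPM in libraries labelled KO RS, against 1.09 to 1.89 CPM in WT RS, where Hsd3b1, Hsd17b3 and Insl3 were at 0. In KO MII they summed to 117 to 220.2 CPM, against 39.7 to 55.9 CPM in WT MII. Of 9 markers of myoid, endothelial and stromal cells tested, 2 were lower and 0 higher in MII, against 1.86% and 1.83% of all genes. Acta2 was 1 of the 2 lower, at -2.28 (adjusted p = 0.000664, edgeR). In RS, 0 of the 9 were called, against 13.4% of all genes. Sums of that list overlapped in MII, at 40.5 to 93.9 CPM in KO MII, against 67.5 to 119.6 CPM in WT MII. With scores of the Sertoli and Leydig lists as covariates, 0 of the 37 genes were called in any comparison, and of all genes 53 were called in RS and 9 in MII. The median of the 37 in that fit was 0.32 in RS and 0.12 in MII. Since Sertoli sums did not overlap between KO and WT in either stage, the fit cannot tell the genotype from the scores. Leydig sums did not overlap between the stages, so the same holds for stage.

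**Figure D3:**
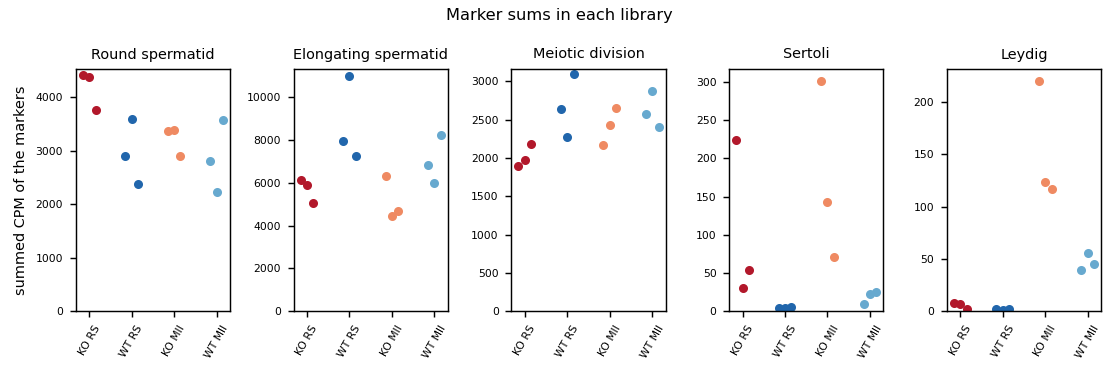
Summed CPM of 5 marker lists (panels) in each library (points), for KO RS, WT RS, KO MII and WT MII from left to right. Round spermatid sums are higher in the libraries labelled KO RS than in WT RS, elongating spermatid sums are lower, and Sertoli and Leydig sums are higher in KO than in WT MII libraries.

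Genes of the acrosome outside the 37 were taken from a wider list of 52, of which 47 could be tested. In RS, 5 were higher in KO and 2 lower, with a median log2 fold change of 0.03, near the 13.4% of all genes called in either direction. In MII, 1 was higher and 0 lower, with a median of 0.13, against 3.68% of all genes. The smallest adjusted p in RS belonged to Spaca5, another lysozyme-like acrosomal protein, at 0.82 (adjusted p = 0.00573), and to Sun5, a nuclear envelope protein of spermatids, at 0.79 (adjusted p = 0.00912, edgeR quasi-likelihood test). In MII they belonged to Vps54, a Golgi tethering factor needed for the acrosome in mice, at 1.07 (adjusted p = 0.0415), and to Actrt3, a testis actin-related protein, at -0.69 and not called (adjusted p = 0.0783, edgeR). The difference of the effects called 0 of the 47.

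From MII to RS in WT, 5 of the 37 genes rose and 3 fell, against 7.74% of all genes higher and 8.68% lower (16.4% in either direction), and their median log2 fold change was 0.08. Stages did not overlap for 6 that were higher and 3 that were lower in RS, against 14.5% and 15.9% of all genes. Fam170b rose most, with 295, 349.6 and 270.4 CPM in WT RS, against 195, 181 and 151 CPM in WT MII libraries, at 0.80 (SE 0.135, adjusted p = 0.000745, edgeR quasi-likelihood test). Pcsk4 had 116, 112 and 111 CPM in WT RS, against 56.4, 82.6 and 59.4 CPM in WT MII libraries, at 0.77 (SE 0.150, adjusted p = 0.00209, edgeR). Actl7a had 474, 619 and 379 CPM in WT RS, against 320.3, 324 and 252 CPM in WT MII, at 0.72 (SE 0.167, adjusted p = 0.0068, edgeR). None of these 3 genes had overlapping stages, and their calls held whichever single library was left out, though not with the marker covariates. Pick1 rose by 0.59 (adjusted p = 0.0192) and Zp3r by 0.44 (adjusted p = 0.0435, edgeR), and the call of Zp3r was lost under 11 of 22 alternatives.

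The genes that fell from MII to RS were a trafficking factor, a matrix protein and an inhibitor. Gopc was at -0.86 (SE 0.242, adjusted p = 0.0204, edgeR quasi-likelihood test), with 8.98, 6.20 and 12.3 CPM in WT RS, against 12.9, 20.2 and 16.5 CPM in WT MII. Zpbp had 382, 370.1 and 409 CPM in WT RS, against 575, 502 and 872 CPM in WT MII, at -0.75 (SE 0.183, adjusted p = 0.00912, edgeR). Spink2 had 1312, 1361 and 1459 CPM in WT RS, against 1828, 1555 and 2195 CPM in WT MII, at -0.43 (SE 0.124, adjusted p = 0.0217, edgeR). No stages overlapped, but WT MII replicate 3 was well above its group for Zpbp and Spink2, and the calls of Zpbp, Spink2 and Gopc were all lost without it. Gopc was also lost without WT MII replicate 2, WT RS replicate 1 or WT RS replicate 2. The 8 calls became 3 without WT RS replicate 1, 5 without WT RS replicate 2 and 5 without WT MII replicate 3.

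From MII to RS in KO, 4 of the 37 rose and 1 fell, against 4.16% of all genes higher and 8.17% lower (12.3% in either direction), and their median was 0.26. Stages did not overlap for 17 that were higher and 3 that were lower in RS, against 17.8% and 19.2% of all genes. With library sizes taken as the total count alone, 601 genes were called higher and 1955 lower over the whole table, against 885 and 1740 with TMM scaling. Actl7a rose by 0.68 (adjusted p = 0.0116), Spaca4 by 0.62 (0.0334), Fam170b by 0.59 (0.00783) and Acr by 0.42 (0.0241), and Gopc fell by 1.31 on the log2 scale (SE 0.250, adjusted p = 0.00199, edgeR quasi-likelihood test). For Gopc these are 5.14, 3.98 and 5.21 CPM in libraries labelled KO RS, against 9.27, 13.4 and 12.9 CPM in KO MII, with no overlap. Fam170b and Actl7a were called higher and Gopc lower in both genotypes. Leaving out the library labelled KO RS replicate 1, Gopc (-1.37, adjusted p = 0.00702), Fam170b (0.58, adjusted p = 0.0315) and Actl7a (0.67, adjusted p = 0.0377) were still called and Spaca4 and Acr were not. The comparisons of stages and of genotypes share libraries, so they are not independent of each other.

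**Figure D4:**
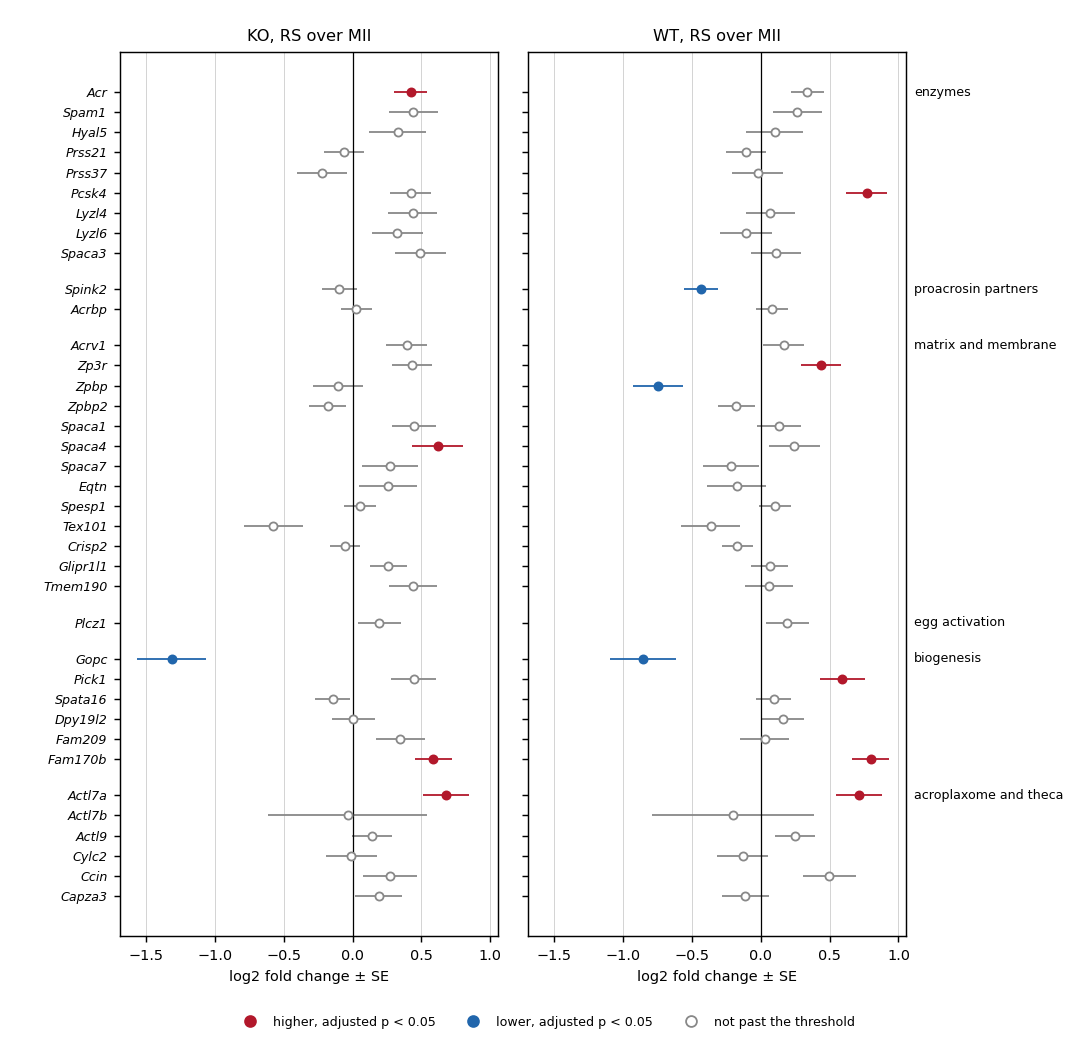
Log2 fold change of RS over MII with its standard error (horizontal axis) for each of the 37 genes (rows, by role), in KO on the left and in WT on the right. Fam170b and Actl7a lie to the right of 0 and Gopc to the left in both panels, as filled points that passed the test.

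Levels within the list spanned more than the changes. Per kilobase of exon, in WT RS, Spink2 led at 1748 ± 94.9 CPM per kb, followed by Fam209 at 793 ± 194 and Crisp2 at 715 ± 36.7 CPM per kb (SD, n = 3). Fam209 and Crisp2 did not differ beyond their spread. In the libraries labelled KO RS the same 3 genes were at 1882 ± 53.6, 1176 ± 128 and 819 ± 15.7 CPM per kb, in that order. The median of the 37 in WT RS was 175 CPM per kb, and Tex101 (13.4), Pick1 (6.22), Gopc (0.835) and Actl7b (0.707 CPM per kb) were lowest. Gopc and Actl7b did not differ beyond their spread there. The level of Actl7b is uncertain, since antisense Gm26657 covers 1308 of its 1439 exon bases. Gm49486, on the same strand, covers 18.6% of the exon length of Pick1, whose count depends on how shared reads were assigned. Among the 6 biogenesis and trafficking factors alone, transcript levels ran from 0.835 for Gopc to 793 CPM per kb for Fam209.

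**Figure D5:**
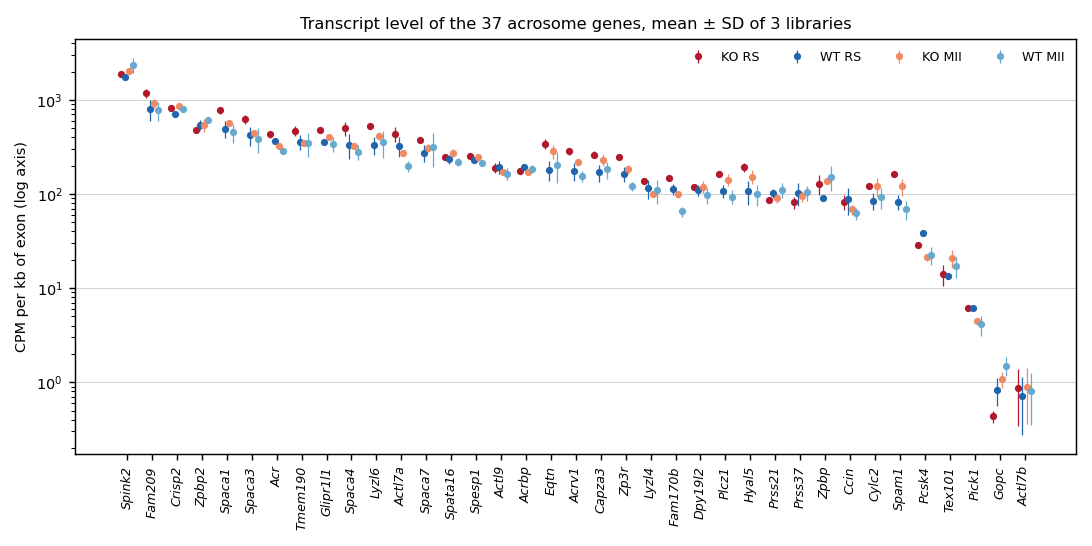
Level of each of the 37 genes in CPM per kilobase of exon (log axis), as the mean and SD of 3 libraries in KO RS, WT RS, KO MII and WT MII (points of a gene from left to right), ranked by the WT RS mean. Spink2 is highest in all 4 groups, and Pick1, Gopc and Actl7b are the lowest. The level of Actl7b is uncertain because of its antisense overlap.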

How the data were processed

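A single table of raw counts was deposited by the authors, with 1 row per gene, its mm10 exon coordinates and its exon length in bases. Listed per the submitters' processing notes are featureCounts 2.0.2, STAR 2.7.10a, DESeq2 and Trim Galore 0.6.7, and build mm10. Their order and settings, the annotation, the use of strand and the handling of multi-mapping reads were not given in the sources used here. Per the labels' protocols, sorted cells were made into Smart-seq2 libraries with oligo(dT) priming and about 12 preamplification cycles, and no molecular identifiers are named. Groups and replicate numbers came from the sample titles.

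Counts entered unchanged. A filter on low counts (edgeR's filterByExpr, minimum count 10, minimum total 15) left 21291 of the 37839 genes with any count. CPM values use TMM-scaled sizes. Genes were tested by edgeR quasi-likelihood with robust dispersion (R 4.3.3, edgeR 4.0.16, limma 3.58.1, DESeq2 1.42.0), fitted to all 12 libraries with a mean per group, 8 residual degrees of freedom and Benjamini-Hochberg adjustment over all genes tested. Each SE was obtained from the log2 fold change and its F statistic. The biological coefficient of variation was 22.3%. An exact permutation test of 3 against 3 cannot go below p = 0.1 and was not used. Libraries of a group correlated between 0.965 and 0.983 and no pair agreed within sampling noise, which does not show that they came from separate samples, and each was counted as labelled.

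The 37 genes, the roles, the marker lists and the wider acrosome list were chosen with earlier results of these data known. Values in every library are given for genes called in a KO comparison, the 3 highest per kilobase in WT RS, and the 3 largest rises and 3 largest falls from MII to RS in WT. Motifs were searched in the 250 bases before RefSeq starts (GRCm38.p6), for which 31 of the 37 genes had an entry.

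Alternatives to the scaling were the total count, size factors of DESeq2, and sizes without mitochondrial genes and the 10 most counted genes. Alternatives to the filter were none at all or a minimum of 5 CPM in 3 libraries. Other fits used DESeq2, limma-voom, a replicate block, the compared libraries alone, marker scores of Sertoli and Leydig cells as covariates, or 1 library fewer, and a last one asked for a 2-fold change. On simulated counts with 200 genes changed, the RS comparison (20748 genes) recovered 20.9% of 1.5-fold, 76.1% of 2-fold and 98.5% of 4-fold changes with 3.70% of calls false. The MII comparison (20719 genes) recovered 7.46%, 61.2% and 98.5% with 10.5% false, and the stage comparison in WT (20763 genes) 10.4%, 68.7% and 97.0%, where 2.50% of calls were false. Fewer genes were changed in the simulation than were called in the data, so the adjustment was stricter there.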

Additional observations from a re-analysis of the deposited data

How the results depend on the processing

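None of the changes called in the 37 genes turned its direction under the alternatives run, which were not applied to the single genes of the wider list. All numbers here count the 37 genes called unless stated. A fold change of at least 2 left 0 of 14 called for KO against WT in RS, 0 of 4 in MII, 0 of 8 for RS against MII in WT and 1 of 5 in KO. The marker covariates left 0 in each of these comparisons, but the marker scores differ between the groups compared, so that fit cannot tell them apart. With no filter, 8 were called in MII and 12 for RS against MII in KO, where DESeq2 called 8. With only the libraries compared, 1 was called in MII, 5 for RS against MII in WT and 17 in KO. The cause of these shifts was not tested, but a fold threshold can only remove calls. Leaving out a library in turn gave 2 to 18 for RS, 0 to 5 for MII, 3 to 9 for RS against MII in WT and 2 to 11 in KO. The difference of the KO effects gave 0 under every alternative.

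Over all genes, 2863 were called in RS, 784 in MII, 3497 for RS against MII in WT and 2625 in KO. A fold change of at least 2 left 1177, 375, 1312 and 1055 of them, and the covariates 53, 9, 0 and 0. In MII, no filter gave 1440, DESeq2 1519 and only the libraries compared 403. That last setting gave 2108 for RS against MII in WT and 4451 in KO. For the difference of effects, 1 gene was called, against 65 with no filter, 19 with DESeq2 and 0 with limma-voom.

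Whether same-numbered libraries share an animal or a batch is not in the labels. The correlations of their deviations ran from -0.20 to 0.29, and were 0.29, 0.08 and 0.16 between RS and MII in KO. With 3 libraries per group, these values cannot show that a pairing is absent. With the replicate block, 13 of the 37 were called in RS, 4 in MII, 0 for the difference, 8 for RS against MII in WT and 5 in KO. In RS, Glipr1l1 and Spaca3 were lost and 12 calls were shared. With 3 libraries per group, 7.46% to 20.9% of 1.5-fold changes were recovered in simulated counts. Only 200 genes were changed there, fewer than were called in the data, so these shares are not those of the 37 genes. A gene not called is not shown to be unchanged. Actl7b was too low for the 5 CPM filter, which kept 36 genes.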
